A study of Mus musculus with 9 samples.

Results

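Genes of the Wnt, BMP, TGF-beta, Notch and hedgehog pathways were examined in mouse tail skin after surgical ablation of its lymphatics. Members were chosen by gene symbol in the array's annotation: Wnt ligands, their Frizzled (Fzd) and Ror receptors, the secreted inhibitors Sfrp and Dkk, Axin, the numbered BMPs and BMP receptors, the Smads, the TGF-beta ligands and receptors, the activin receptors (Acvr), Notch receptors with their Jag and Dll ligands, and Gli and Ptch. The rule found 51 genes of 10554 named genes, on 110 of 42624 array features. A gene was tested if at least 1 of its features had a value on all 9 arrays, which held for 44 of the 51 members and for 8644 genes in all. The Wnt pathway had 18 members (14 tested), the BMP and TGF-beta pathway 25 (23 tested), Notch 5 (5 tested) and hedgehog 3 (2 tested). Acvr2a, Bmp4, Fzd7, Gli3, Sfrp2, Sfrp4 and Wnt2 had no complete feature. The symbols Bmp2k, Tgfb1i1 and Tgfbrap1 matched the rule by name, although they encode a kinase, a focal adhesion protein and a receptor-associated adaptor rather than ligands, receptors or Smads.

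The study compared 3 states of tail skin in female hairless, immunocompetent SKH-1 mice, given in the study's report as 3 weeks old. In lymphedema the skin of the tail was cut around and the main lymphatic trunks were cauterized. In surgical sham controls the skin was cut and dye was injected, as in lymphedema, but the lymphatics were spared, and normal mice were not operated on. Skin of the distal part of the tail was taken on day 14 from 9 mice of each state, and the RNA of 3 mice was pooled for each of 3 arrays per state. Every array was a spotted cDNA array with 2 colors, on which the skin RNA was set against a common reference of whole embryos (e17.5). A value below is the log2 ratio of tail skin over that reference, centered on the median of its array, so a positive value means more RNA in skin than in embryo. Lymphedema against sham asks what lymphatic ablation adds to the incision, and sham against normal asks what the incision alone leaves.

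The 9 arrays correlated with each other at 0.818 to 0.960 across features, and 1.34% to 12.6% of the values on an array were missing. The deposited ratios run from embryo to skin and were turned, because 26 to 28 of 28 embryo genes lay above the median of each array as deposited and 13 or 14 of 15 adult skin genes below it. The arrays also fell into a pair of sets: for 186 features, lymphedema array 1 and the 3 normal arrays had values and the other 5 arrays had none, and 1 feature showed the reverse. The set cannot be told apart from the state for 8 of the 9 arrays, and lymphedema array 1 alone links lymphedema with normal skin within a set. Markers of the tissue were present: basal keratinocyte genes had array medians of 1.83 to 2.33 in lymphedema, 2.03 to 2.33 in sham and 1.99 to 2.16 in normal skin. Macrophage genes had array medians of 0.89 to 1.07 in lymphedema, −0.51 to 0.74 in sham and −0.81 to −0.48 in normal skin, and 9 of 15 passed the test between lymphedema and normal. Neutrophil genes had 1.33 to 1.72 in lymphedema, −0.81 to 1.03 in sham and −1.41 to −1.12 in normal skin, and 4 of 8 passed. Sham array 3 stood apart from sham arrays 1 and 2. Its array median was 1.03 for neutrophil genes (−0.81 and −0.34 on sham arrays 1 and 2), 0.74 for macrophage genes (−0.41 and −0.51), −0.11 for dermal fibroblast genes (−1.01 and −1.29), −2.86 for skeletal muscle genes (−4.75 and −3.78) and 1.44 for hair follicle genes (2.81 and 3.43). Comparisons with sham are therefore also given without it, a choice made after these values were seen. The part of these cells in the results below was not tested, and in whole skin fewer cells of a type cannot be told apart from less RNA per cell.

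These pathways carry signals between neighboring cells and are used again and again in the growth and repair of skin. Wnt ligands bind Frizzled receptors and stabilize beta-catenin, or act through Ror receptors without it, and in skin they take part in hair follicle formation and in the upkeep of the epidermis. TGF-beta, activin and BMP ligands bind paired serine/threonine kinase receptors that phosphorylate Smads, and TGF-beta is known for driving matrix production by fibroblasts. Notch is cut and released into the nucleus when a Jagged or Delta-like ligand on the next cell binds it, which in the epidermis promotes differentiation and in vessels restrains sprouting. Hedgehog ligands relieve the block that Ptch1 sets on the pathway, so that Gli factors turn on their targets.

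In lymphedema against normal skin, 3 of the 44 members passed limma's test at a Benjamini-Hochberg adjusted p under 0.05, and the 3 were Wnt pathway genes. Wnt7b and Ror2 rose and Wnt7a fell. That is 6.82% of the members, where 3.44% of all 8644 genes passed. By direction, 2 members rose (4.55%, against 2.83% of all genes) and 1 fell (2.27%, against 0.602%). Under quantile normalization no member rose and 2 fell, Wnt7a and Wnt1. At an unadjusted p under 0.05 the share was 27.3% of members (12 genes) and 20.5% of all genes. By pathway it was 7 of 14 Wnt genes (50%), 4 of 23 BMP and TGF-beta genes (17.4%), 1 of 5 Notch genes (20%) and 0 of 2 hedgehog genes. With the array set as a block the Wnt share was 35.7%. The lymphedema arrays did not overlap the normal arrays in 15 members (34.1%), where 33.7% of all genes showed this, so the members separated about as often as genes in general. The difference was above 0 in 29 of the 44 members (65.9%) and in 61.9% of all genes. The median log2 difference was 0.14 over the members and 0.10 over all genes. It was 0.27 for Wnt and 0.11 for BMP and TGF-beta (0.16 and 0.01 under quantile normalization). For Notch it was −0.26 (0.03 with arrays scaled to one spread) and for hedgehog 0.21 (−0.10 under quantile normalization). Quantile normalization took the median of all genes to −0.02 and that of the members to −0.01. Higher genes were then 60.9% of all calls, against 82.5% in the main fit. Without centering 154 genes were called higher and 56 lower, and with centering on complete features 135 and 48. SAM at a false discovery rate of 5%, the test of the study's methods but without its signal filter, called 11 members (25%) and 21.3% of all genes. With the array set as a block, limma called 0 members and 0 of all 8644 genes, with an unadjusted p under 0.05 in 7 members (15.9%) and 979 of all genes (11.3%). When lymphedema array 2, lymphedema array 3 or any single normal array was left out, 0 members passed and 11 to 73 of all genes did. In those fits 7 to 10 of the 44 members had an unadjusted p under 0.05, beside 1120 to 1696 of all 8644 genes. Without lymphedema array 1, Wnt7b alone passed among the members, beside 24 of all genes.

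**Figure D1:**
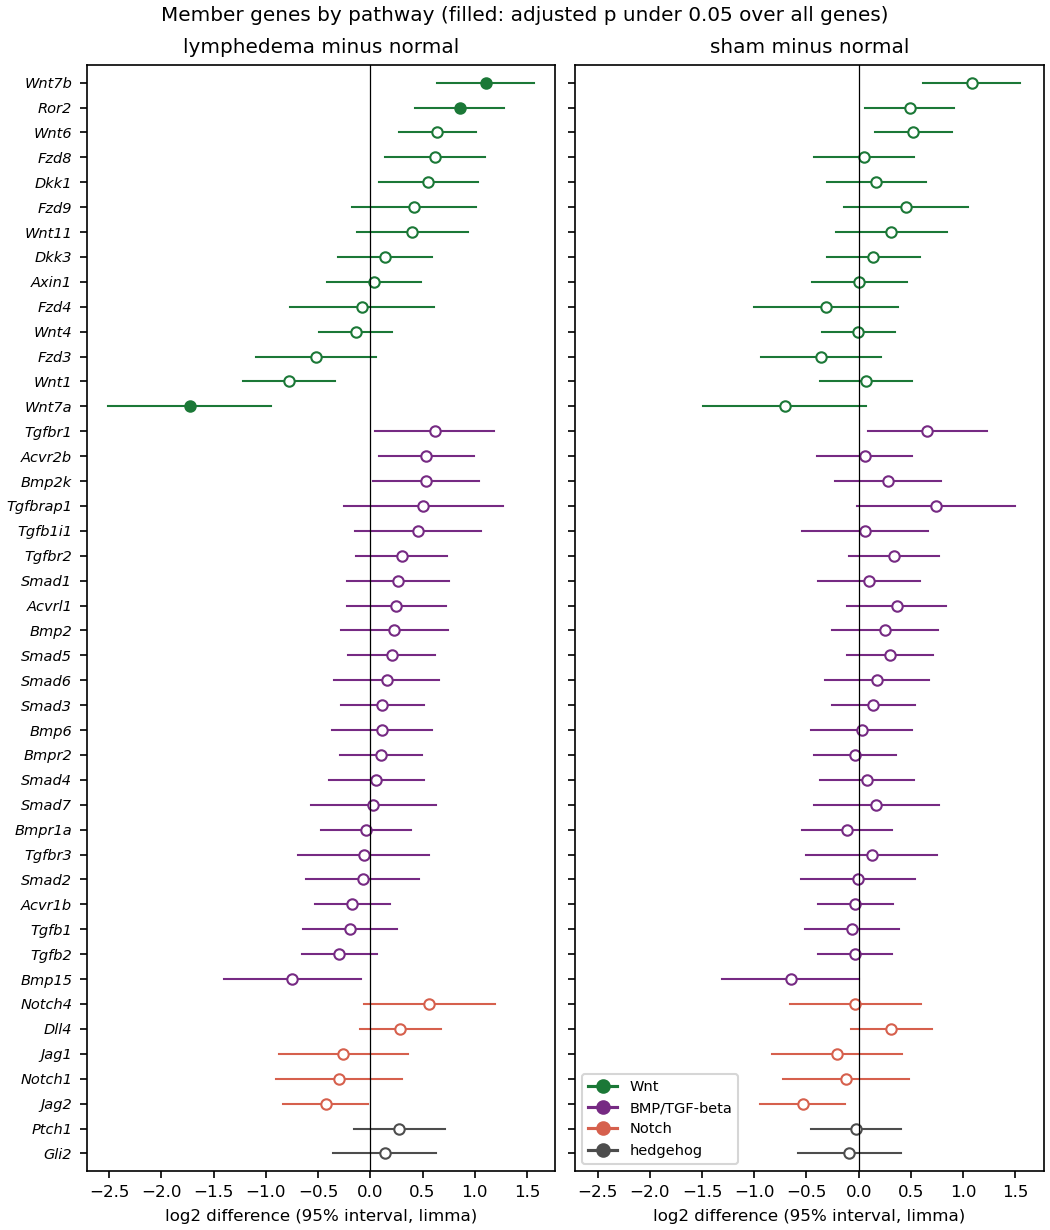
Log2 difference (points) with its 95% confidence interval (bars) for the 44 tested members, 1 row per gene grouped by pathway, for lymphedema minus normal skin on the left and sham minus normal skin on the right, with filled points for adjusted p under 0.05. On the left Wnt7a at −1.73 and Wnt7b at 1.10 lie farthest from 0, and on the right Wnt7b at 1.08 does.

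Wnt7a, a Wnt ligand made by the epidermis, had log2 ratios of −0.43, −1.42 and −0.63 on the lymphedema arrays, −0.64, 0.38 and 0.83 on the sham arrays and 0.73, 1.16 and 0.81 on the normal arrays. The lymphedema arrays lay below the normal arrays without overlap, and sham array 1 lay among the lymphedema arrays while sham arrays 2 and 3 lay above them. The log2 difference of lymphedema minus normal was −1.73 ± 0.36 (SE, n = 3 arrays per state, limma adjusted p = 0.0288), a fold of 0.302. The difference of lymphedema minus sham was −1.02 ± 0.36 (adjusted p = 0.546 by limma), and that of sham minus normal was −0.71 ± 0.36 (adjusted p = 0.663 by limma). Within the array set that holds the normal arrays, lymphedema array 1 alone differed from normal by −1.33. The Wnt7a values rest on 1 clone.

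Wnt7b, a close relative of Wnt7a that signals between epidermis and mesenchyme, moved the other way. Like Wnt7a, it was measured by 1 clone. Its log2 ratios were 2.23, 2.84 and 2.96 in lymphedema, 2.73, 2.56 and 2.66 in sham and 1.77, 1.41 and 1.54 in normal skin. All 6 arrays of operated mice lay above the 3 normal arrays, and the lymphedema and sham arrays overlapped. The log2 difference of lymphedema minus normal was 1.10 ± 0.21 (SE, n = 3 per state, limma adjusted p = 0.0275), a fold of 2.15. The difference of sham minus normal was 1.08 ± 0.21 (limma adjusted p = 0.196), and SAM called it. Under quantile normalization lymphedema minus normal was 0.99 (limma adjusted p = 0.0572), past the threshold no longer. Lymphedema minus sham was 0.02, with a 95% confidence interval of −0.44 to 0.49. Within 1 array set, lymphedema array 1 differed from normal by 0.65.

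Ror2, a receptor tyrosine kinase for Wnt5a, was represented by 2 clones, and its averaged log2 ratios were −0.31, 0.13 and −0.18 in lymphedema, −0.41, −0.81 and −0.24 in sham and −0.968, −1.003 and −0.957 in normal skin. The 3 normal arrays lay close together and below the other 6, and the sham arrays reached into the range of lymphedema. The log2 difference of lymphedema minus normal was 0.86 ± 0.19 (SE, n = 3 per state, limma adjusted p = 0.0399), a fold of 1.81, and the clones gave 0.99 and 0.72. Under quantile normalization it was 0.73 (limma adjusted p = 0.0655). The difference of lymphedema minus sham was 0.37 ± 0.19 (limma adjusted p = 0.692), and that of sham minus normal 0.49 ± 0.19 (limma adjusted p = 0.549). Within 1 array set, the difference of lymphedema array 1 from normal was 0.66. Ror2 was also the call that other settings ended most often, as it passed under 7 of 20 alternatives, against 12 each for Wnt7a and Wnt7b.

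The promoters of the opposed pair Wnt7a and Ror2 are shown because these genes carry the result and RefSeq's table holds them. Each line gives the gene and 300 bases of mouse build GRCm38.p6, mostly upstream of the start of the gene and reaching into its first bases, read along the gene, with every GGGCGG box on either strand in capitals. The Wnt7a promoter is chr6:91411304-91411603 on the minus strand and the Ror2 promoter is chr13:53286075-53286374 on the minus strand.
Wnt7a: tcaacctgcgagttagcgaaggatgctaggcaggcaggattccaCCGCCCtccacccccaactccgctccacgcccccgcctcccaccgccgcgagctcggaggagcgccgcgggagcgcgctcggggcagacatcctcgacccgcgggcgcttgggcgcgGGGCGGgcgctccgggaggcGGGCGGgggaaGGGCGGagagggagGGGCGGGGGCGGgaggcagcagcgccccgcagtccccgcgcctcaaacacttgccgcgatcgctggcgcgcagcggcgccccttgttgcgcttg
Ror2: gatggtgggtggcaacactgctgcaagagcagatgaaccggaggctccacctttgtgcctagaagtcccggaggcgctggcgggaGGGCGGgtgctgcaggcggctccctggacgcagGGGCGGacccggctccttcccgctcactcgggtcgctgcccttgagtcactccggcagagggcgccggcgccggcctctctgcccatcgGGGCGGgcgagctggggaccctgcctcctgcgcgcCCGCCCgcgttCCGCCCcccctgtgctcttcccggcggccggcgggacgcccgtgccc
Of the Wnt7a bases 76% were G or C, and of the Ror2 bases 74.7%, where the median over all 32851 promoters was 52.7%. The GGGCGG box occurred 6 times in the Wnt7a promoter and 5 times in the Ror2 promoter, adjoining boxes counted separately. Across all promoters 35.7% held at least 1 box, and 31 of the 38 members with a promoter in the table did. Neither sequence held the TCF/LEF motif CTTTGAT (3.73% of all promoters) or the RBPJ motif GTGGGAA (6.38%) on either strand. The Smad motif CAGACA (21.0% of all promoters) was present in Wnt7a, and the Gli motif CCACCCA (9.3%) in Ror2, once each. Such matches describe the letters of this window and not binding.

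**Figure D2:**
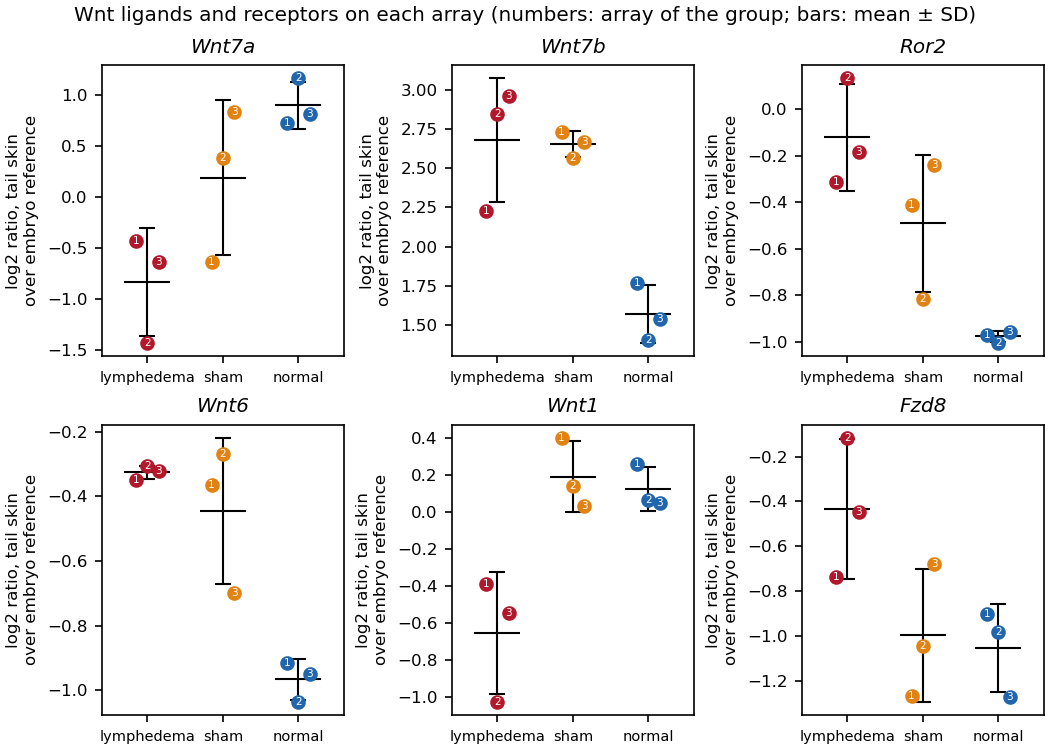
Log2 ratio of tail skin over embryo reference on every array for the named Wnt pathway genes, with lymphedema, sham and normal from left to right, numbered points for the arrays of a state and bars for the mean ± SD. Wnt7b and Wnt6 stand higher on the operated arrays than on the normal ones, and Wnt1 stands lower in lymphedema than in the other states.

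A pair of other Wnt ligands came near the threshold. Wnt6, an epithelial Wnt ligand, had log2 ratios of −0.35, −0.31 and −0.32 in lymphedema, −0.36, −0.27 and −0.70 in sham and −0.92, −1.04 and −0.95 in normal skin. As for Wnt7b, the operated arrays lay above the normal ones without overlap, by 0.64 ± 0.17 in lymphedema (SE, n = 3 per state, limma adjusted p = 0.0638) and by 0.52 ± 0.17 in sham (limma adjusted p = 0.439). These values rest on 1 clone. A second Wnt6 clone with values on 7 arrays gave −0.37 for lymphedema minus normal, so the clones disagree in sign.

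Wnt1, known from the development of the midbrain, had 8 spots of 1 accession, of which 4 were complete. Their averaged log2 ratios were −0.39, −1.02 and −0.55 in lymphedema, 0.40, 0.14 and 0.03 in sham and 0.26, 0.06 and 0.05 in normal skin. The lymphedema arrays lay below all 6 others, while sham and normal overlapped. The log2 difference was −0.78 ± 0.20 against normal (SE, n = 3 per state, limma adjusted p = 0.0615) and −0.84 ± 0.20 against sham (limma adjusted p = 0.442). The 4 complete spots gave −1.04 to −0.57 against normal, and the 4 incomplete spots also lay below 0. Within the array set of the sham arrays, lymphedema arrays 2 and 3 differed from sham by −0.98. Because the spots share 1 accession, they were not counted as separate clones. Their levels differed, from −0.76 to 1.31 on normal array 3, and whether they carry the same cDNA was not tested.

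Among the receptors, Fzd8 had log2 ratios of −0.74, −0.12 and −0.45 in lymphedema, −1.27, −1.04 and −0.68 in sham and −0.90, −0.98 and −1.27 in normal skin. The lymphedema arrays lay above the normal ones, by 0.62 ± 0.22 (SE, n = 3 per state, limma adjusted p = 0.141), and overlapped sham at its array 3. Fzd3, averaged over 4 spots of 3 clones, lay lower in lymphedema than in normal skin by a log2 difference of −0.52 ± 0.26 (limma adjusted p = 0.288), at −0.28, −0.80 and −0.66 in lymphedema, −0.93, −0.49 and 0.18 in sham and −0.18, −0.06 and 0.07 in normal skin. The 4 Fzd3 spots were of 1 sign, from −0.78 to −0.30. The inhibitor Dkk1, which blocks the Wnt coreceptors, had log2 ratios of −0.67, −0.39 and −0.68 in lymphedema, −0.64, −1.37 and −0.89 in sham and −1.15, −0.89 and −1.36 in normal skin. The difference of lymphedema minus normal was 0.56 ± 0.22 for Dkk1 (limma adjusted p = 0.178), and its clones gave 0.23 and 0.88. Tested feature by feature, the second Dkk1 clone passed the threshold (limma adjusted p = 0.0479 over features). The other tested Wnt genes, Wnt4, Wnt11, Fzd4, Fzd9, Dkk3 and Axin1, differed by −0.14 to 0.42 on the log2 scale, and none passed.

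None of the 23 tested BMP and TGF-beta genes passed between lymphedema and normal skin. An unadjusted p under 0.05 was found in 4 (17.4%), near the 20.5% of all genes, and 1 of these was Bmp2k, a match by name only. Of the 5 ligands, 2 lay above 0, of the 8 receptors 5, and of the 7 Smads 6. The Smads, which carry the signal to the nucleus (Smad1 to Smad5) or hold it back (Smad6 and Smad7), differed by −0.07 to 0.26, and for none of them did the arrays of lymphedema and normal skin separate. Under quantile normalization 3 of the 7 Smads lay above 0, so the Smads have no direction that holds under each scaling. Tgfbr1, the type I receptor of the TGF-beta receptor pair, had log2 ratios of 0.94, 0.37 and 0.69 in lymphedema, 0.25, 1.15 and 0.73 in sham and −0.20, −0.08 and 0.43 in normal skin. Its difference from normal was 0.61 ± 0.26 in lymphedema (SE, n = 3 per state, limma adjusted p = 0.213) and 0.66 ± 0.26 in sham (limma adjusted p = 0.545), with normal array 3 inside the range of both. Its partner Tgfbr2 lay 0.30 above normal in lymphedema (limma adjusted p = 0.422).

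Acvr2b, a type II activin receptor, had log2 ratios of −0.09, 0.34 and 0.42 in lymphedema, −0.13, −0.56 and −0.09 in sham and −0.54, −0.18 and −0.24 in normal skin. Its differences were 0.54 ± 0.21 against normal (SE, n = 3 per state, limma adjusted p = 0.174) and 0.48 ± 0.21 against sham (limma adjusted p = 0.648). Bmp15, a growth factor of the oocyte, had the largest difference of the pathway by size, at −0.75 ± 0.30 (limma adjusted p = 0.189). Its log2 ratios of 1.34, 0.28 and 0.50 in lymphedema, 0.60, 0.72 and 1.08 in sham and 1.92, 1.02 and 1.42 in normal skin overlapped. Of the symbols that match by name, Bmp2k gave 0.53 ± 0.23 (limma adjusted p = 0.223) and Tgfbrap1 0.51 ± 0.35 (limma adjusted p = 0.442). Tgfb1 and Tgfb2, the ligands most tied to wound matrix, differed by −0.20 and −0.30, and the 3 lymphedema arrays of Tgfb2 (−1.64, −1.69 and −1.48) lay below the sham (−1.32, −1.46 and −1.25) and normal arrays (−1.17, −1.44 and −1.32). Its limma adjusted p was 0.334 against normal and 0.723 against sham.

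**Figure D3:**
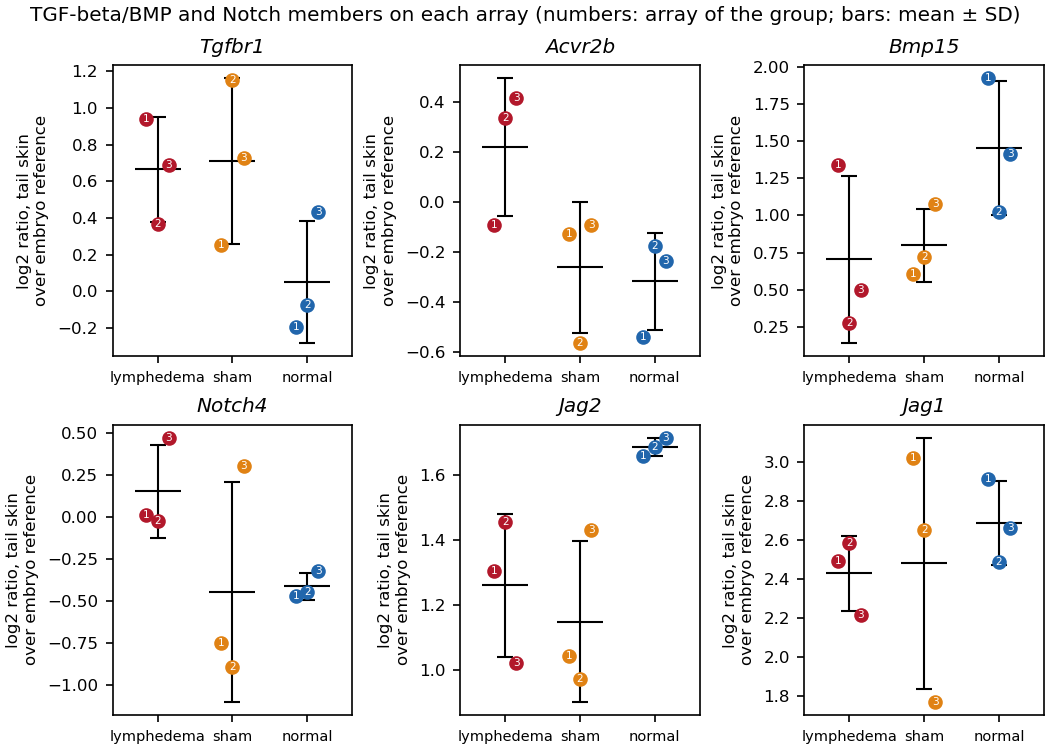
Log2 ratio of tail skin over embryo reference on every array for 3 receptors and ligands of the TGF-beta and BMP pathway and 3 genes of the Notch pathway, with lymphedema, sham and normal from left to right, numbered points for the arrays and bars for the mean ± SD. The normal arrays of Jag2 lie between 1.66 and 1.71, above all lymphedema and sham arrays, and sham arrays spread widest for Notch4 and Jag1.

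None of the 5 Notch genes passed. Notch4, the receptor typical of endothelium, had log2 ratios of 0.01, −0.03 and 0.47 in lymphedema, −0.75, −0.89 and 0.30 in sham and −0.47, −0.45 and −0.32 in normal skin. The lymphedema arrays lay above the normal ones by 0.57 ± 0.29 (SE, n = 3 per state, limma adjusted p = 0.292), and sham array 3 lay within the lymphedema range. Against sham the difference was 0.60 ± 0.29 (limma adjusted p = 0.670). Endothelial marker genes also lay higher in lymphedema, with array medians of −0.08 to 0.14, against −0.75 to −0.28 in sham and −0.65 to −0.55 in normal skin. Of these markers 2 of 6 (Kdr and Eng) passed between lymphedema and normal. On sham array 3 the endothelial markers had a median of −0.28, below every lymphedema array, unlike Notch4 at 0.30. Their part in the Notch4 values was not tested. Dll4, the Notch ligand of sprouting vessels, differed from normal by 0.29 ± 0.18 (limma adjusted p = 0.397), at −0.09, 0.06 and −0.18 in lymphedema, −0.06, −0.20 and 0.13 in sham and −0.18, −0.32 and −0.58 in normal skin.

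Jag2, a Notch ligand of basal epidermis, had log2 ratios of 1.30, 1.45 and 1.02 in lymphedema, 1.04, 0.97 and 1.43 in sham and 1.66, 1.68 and 1.71 in normal skin. All 6 operated arrays lay below the normal ones, by −0.43 ± 0.19 in lymphedema (SE, n = 3 per state, limma adjusted p = 0.225) and −0.54 ± 0.19 in sham (limma adjusted p = 0.489). Jag1, also an epidermal ligand, differed by −0.26 ± 0.28 (limma adjusted p = 0.651), with overlapping arrays of 2.49, 2.58 and 2.21 in lymphedema, 3.02, 2.65 and 1.77 in sham and 2.91, 2.49 and 2.66 in normal skin. Its sign turned when arrays were scaled to one spread, to 0.03. Notch1, the main receptor of the epidermis, gave −0.30 ± 0.27 as an average (limma adjusted p = 0.573), but its 2 clones opposed each other, at −0.86 and 0.26. Averaged, Notch1 had log2 ratios of 1.87, 1.55 and 1.40 in lymphedema, 2.23, 2.05 and 1.08 in sham and 1.77, 2.01 and 1.95 in normal skin.

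The 2 tested hedgehog genes differed little. Ptch1, the receptor that is also a target of the pathway, had log2 ratios of −1.97, −2.02 and −2.41 in lymphedema, −2.74, −2.18 and −2.39 in sham and −2.50, −2.29 and −2.45 in normal skin, with a difference from normal of 0.28 ± 0.20 (SE, n = 3 per state, limma adjusted p = 0.461). Gli2, the main activator among the Gli factors, had −0.44, −0.61 and −0.74 in lymphedema, −1.10, −1.07 and −0.31 in sham and −0.58, −0.76 and −0.87 in normal skin, with a difference of 0.14 ± 0.22 (limma adjusted p = 0.772). Under quantile normalization both turned sign, to −0.16 for Ptch1 and −0.03 for Gli2.

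**Figure D4:**
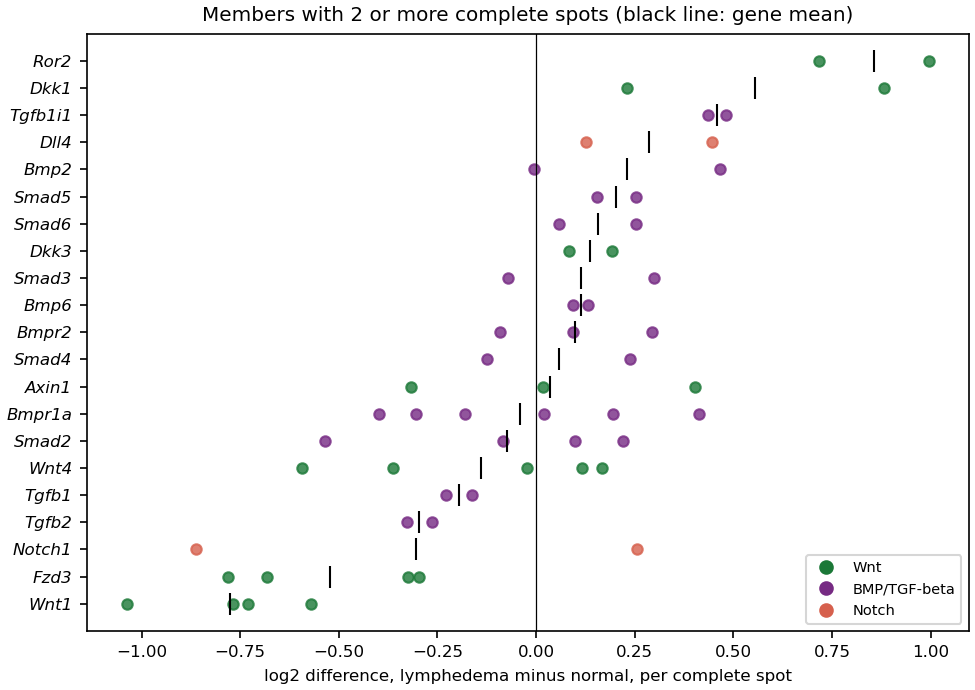
Log2 difference of lymphedema minus normal skin for each complete spot (points) of the 21 members that have 2 or more, 1 row per gene, with a black line at the gene's mean and color for the pathway. The spots of Fzd3 and Ror2 share a sign, and those of Notch1 lie at −0.86 and 0.26.

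Of the tested members, 21 had 2 or more complete spots and 23 had 1. The spots of 19 came from at least 2 clones by accession, and those of Wnt1 and of Bmp2 shared 1 accession. In 9 of the 21 the spots had both signs, and 1 of these was Bmp2, whose spots gave 0.47 and −0.01. The averaged values of single members carry this disagreement. Bmpr1a, a type I BMP receptor, was measured by 6 complete clones from −0.40 to 0.41, which averaged to −0.04. When features with at least 2 of 3 values per state were admitted, 5 of the 7 untested members gave a value, and none passed. The secreted inhibitor Sfrp2 then had a log2 difference of 1.04 between lymphedema and normal (limma adjusted p = 0.297), Wnt2 had −0.86, Bmp4 −0.43, Fzd7 −0.32 and Gli3 −0.01.

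In lymphedema against sham skin no member passed limma's test, where 2 of all 8644 genes did (0.0231%), and SAM called 0 members and 0.0463% of all genes. At an unadjusted p under 0.05 there were 4 members (9.09%, against 7.44% of all genes): Wnt1, Wnt7a, Fzd8 and Acvr2b. The arrays did not overlap in 2 members (4.55%), Wnt1 and Tgfb2, both lower in lymphedema, where 10.3% of all genes separated. The median difference was −0.02 over the members and 0.06 over all genes. Without sham array 3, whose marker levels stood apart as given above, 1 member (Notch4) passed and 96 of all genes did (1.11%). Notch4 then lay 0.97 ± 0.19 above sham (SE, 3 lymphedema and 2 sham arrays, limma adjusted p = 0.0442). Sham array 3 was picked by its values and held the highest sham value of Notch4 (0.30, against −0.75 and −0.89). That p is therefore no independent test. Without sham array 1, and likewise without sham array 2, 0 members and 1 of all genes passed. Without sham array 3, Wnt1 lay at −0.92 (limma adjusted p = 0.072), Wnt7a at −0.70 (0.336), Fzd8 at 0.72 (0.135), Acvr2b at 0.57 (0.228) and Ror2 at 0.49 (0.233).

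In sham against normal skin 0 members passed, as did 0 of all genes (0%), while at an unadjusted p under 0.05 there were 5 members (11.4%, against 7.92% of all genes). Those were Wnt7b, Wnt6, Ror2 and Tgfbr1, above normal, and Jag2, below it. SAM called 1 member, Wnt7b, and 0.243% of all genes. The arrays did not overlap in 6 members (13.6%, against 12.8% of all genes), which adds Smad5 and Tgfbr2 to Wnt7b, Wnt6, Ror2 and Jag2. Without sham array 3, limma called 0 members and 12 of all genes, with an unadjusted p under 0.05 in 9 members and 1467 of all genes, and the difference was 1.07 for Wnt7b, 0.65 for Wnt6, 0.36 for Ror2, 0.65 for Tgfbr1 and −0.68 for Jag2. This comparison shares the normal arrays with that of lymphedema against normal and the sham arrays with that of lymphedema against sham, and every sham array lies in the set that holds no normal array.

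Other genes of the pathways were taken from lists chosen with earlier results of these data known. The counts on these lists are therefore no independent test. Of 20 tested partners and regulators of TGF-beta and BMP, 3 rose in lymphedema against normal skin and none fell. Of all genes 2.83% rose and 0.602% fell. At an unadjusted p under 0.05 there were 5 of the 20 (25%), against 20.5% of all genes. The list median was 0.24 beside 0.10 over all genes. Biglycan (Bgn), a matrix proteoglycan that binds TGF-beta, had log2 ratios of −0.54, −0.10 and 0.14 in lymphedema, −0.91, −1.23 and 0.18 in sham and −1.71, −1.94 and −1.72 in normal skin. It rose by 1.62 ± 0.32 (SE, n = 3 per state, limma adjusted p = 0.0275), a fold of 3.07, and the sham arrays spread over the gap. Lymphedema minus sham was 0.49 for Bgn (limma adjusted p = 0.743), and 0.90 without sham array 3 (0.0817). Tgif1, a nuclear corepressor of Smads, rose by 0.96 ± 0.18 (limma adjusted p = 0.0270), at 1.20, 0.73 and 0.67 in lymphedema, 0.56, 0.50 and 0.56 in sham and −0.12, −0.14 and 0.00 in normal skin. Endoglin (Eng), a TGF-beta coreceptor of endothelium that is also on the endothelial marker list, rose by 0.92 ± 0.21 (limma adjusted p = 0.0399), at 0.49, 0.57 and 0.70 in lymphedema, 0.38, −0.28 and 0.40 in sham and −0.54, −0.25 and −0.22 in normal skin. Endoglin missed the threshold without centering (adjusted p = 0.0626) and under quantile normalization (0.0554), and with the array set as a block, where limma called 0 of all genes, the differences were 1.24 for Bgn, 1.29 for Tgif1 and 0.83 for Eng.

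Target genes of TGF-beta and BMP had 10 tested genes, and none passed. All 10 lay above 0, from 0.13 to 0.96, with a median of 0.59, where 61.9% of all genes lay above 0. The log2 differences were 0.90 for Col1a1, 0.39 for Col1a2, 0.73 for Col3a1, 0.93 for Fn1, 0.73 for Acta2 and 0.96 for Postn. They were 0.45 for Id1, 0.45 for Id2, 0.13 for Id3 and 0.27 for Msx1, so the median does not describe each gene alike. In 8 of them the lymphedema arrays did not overlap the normal ones, where 33.7% of all genes showed this. The 10 genes also lay above 0 under the other scalings and with the array set as a block, with medians of 0.41 to 0.54. In the main fit 5 of 10 (50%) had an unadjusted p under 0.05, against 20.5% of all genes. With the block 1 of 10 (10%) did, against 11.3% of all genes. In sham minus normal all 10 also lay above 0, with a median of 0.42 and 2 of 10 without overlap (12.8% of all genes). In lymphedema minus sham 8 of 10 lay above 0, with a median of 0.17 and 0 of 10 without overlap (10.3% of all genes). Of all 8644 genes, 5155 lay above 0 in sham minus normal and 5094 in lymphedema minus sham. The array medians of the 10 genes were −1.18, −0.68 and −0.88 in lymphedema, −1.28, −1.49 and −0.62 in sham and −1.51, −1.52 and −1.65 in normal skin, so sham array 3 lay highest of all 9. Periostin (Postn), a matrix protein, came nearest at 0.96 ± 0.25 (limma adjusted p = 0.0600), and it was singled out after its values were seen. Dermal fibroblast markers moved in the same direction, with array medians of −0.90 to −0.60 in lymphedema, −1.29 to −0.11 in sham and −1.32 to −1.12 in normal skin. All 8 lay above 0 in lymphedema minus normal (median 0.57, 6 of 8 without overlap) and in sham minus normal (median 0.41). Of these markers 1 (Fbln1) passed the threshold, and 3 of the 10 tested targets (Col1a1, Col1a2 and Col3a1) are among the 8 markers. Their part in the target values was not tested. No tested gene passed among 17 other Wnt pathway genes (median 0.07), 8 Wnt targets (−0.04), 20 other Notch genes (−0.06), 4 Notch targets (0.10) and 6 other hedgehog genes (0.09). In Wnt targets 3 of 8 lay above 0, and in Notch targets 2 of 4.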

How the data were processed

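RNA of tail skin from lymphedema, surgical sham and normal SKH-1 mice was measured on 9 arrays, 1 for each pool of 3 mice, against RNA of whole embryos. The authors extracted features with GenePix, subtracted background and normalized the dyes. They then dropped features with low signal in the reference channel and imputed missing values. Neither step was applied here, so ratios of weak spots remain and the features tested differ from the study's. The deposited values are log ratios, 1 per feature and array, read here as log2, since the base is not given in the sources used here. Skin carries Cy5 in the labels but Cy3 in the methods, so the direction was read from 28 embryo genes and 15 adult skin genes. The centering applied by the authors is not stated, and the deposited medians of the arrays ran from −0.121 to −0.002. The deposited table keeps its missing values, and 26 cells read null. Signal intensities were not used here.

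The sign was turned, each array was centered on its median over the features with a value on it, and the 30702 features without a missing value were kept. Clones of 1 symbol were averaged, which gave 8644 genes. The 51 member symbols were found in the RefSeq gene table by gene identifier, and no symbol changed. A further 2 features that name a member among several genes were left out. Models were fitted in limma 3.58.1 (lmFit and eBayes, R 4.3.3) over all 9 arrays with group as the only term, and p was adjusted by Benjamini-Hochberg over all genes at 0.05. SAM was written anew with all 20 relabelings of 2 groups. Figures used matplotlib 3.10.9 in Python 3.11.15. With 3 arrays per state, the number of arrays limits the precision, and pools are the replicates.

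Members and gene lists were chosen with earlier results of these data known. Named with values were members past the threshold, the 5 largest differences of lymphedema minus normal per pathway, members whose arrays separated by 0.5 or more, and members whose complete clones differed by over 1. List genes were named if they passed, up to 4 per list. Outside that rule, Tgfb1, Tgfb2, Tgfbr2, Smad5, Bmpr1a, Bmp2 and the incomplete members were named after their values were seen. The same holds for the tested targets of TGF-beta and BMP, Postn among them. Wnt4, Wnt11, Fzd4, Fzd9, Dkk3 and Axin1, also outside it, were named with a range only.

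In simulated data for lymphedema against normal on 8644 genes, limma recovered 59.7% of genes changed 2-fold, 91.0% of those changed 4-fold and 97.0% of those changed 8-fold, and 12 unchanged genes were called. Alternatives changed the scaling (without centering, to one median absolute deviation, by quantiles), the features (2 of 3 values per group, 1 clone per gene, single features), the test (SAM, only the 2 groups compared, a block for the replicate number or for the array set) or the arrays (each left out in turn). Centering on complete features and fits within 1 array set were added after the data were seen.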

Additional observations from a re-analysis of the deposited data

How the results depend on the processing

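Between lymphedema and normal skin, where 3 members passed, 5 passed with the arrays of the 2 groups only (Wnt1 and Wnt6 added), 11 by SAM, and 0 both with the array set as a block and with the normal arrays and lymphedema array 1 alone, an alternative added after the data were seen. Leaving out 1 array at a time gave 0 to 5 members. The count stayed within 2 to 4, though not always the same members, without centering, with scaling to one median absolute deviation, under quantile normalization (both falls, Wnt7a and Wnt1), with 2 of 3 values per group, with 1 clone per gene, with single features and with centering on complete features. Replicate numbers do not pair the arrays (same-number correlations of −0.24 to 0.28 over 9 pairs, 1 above 0.1), and with the replicate number as a block 2 members passed and 145 of all genes, against 297 without it. The count of all genes was 184 under quantile normalization, 183 with centering on complete features, 189 with 1 clone per gene, 842 with the arrays of the 2 groups only and 1838 by SAM. Between lymphedema and sham the count was 0 to 1 with 1 array left out, and between sham and normal SAM called 1. Signs reversed for Gli2 (−0.031) and Ptch1 (−0.16) under quantile normalization, for Jag1 (0.028) under the scaling, and for Wnt6 in sham against normal (−0.061) with 2 of 3 values per group, where its second clone enters. The cause of the other changes was not tested. The 3 arrays per state limit the precision, and 7 members could not be tested.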
